A study of Mus musculus with 6 samples.

Results

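Cholesterol is a major lipid of lens fiber cell membranes, and the enzymes that make it were followed here in newborn mouse lenses that lack Hsf4, a heat shock transcription factor that acts in fiber cell terminal differentiation. The genes are Hmgcs1, Idi1, Fdps, Fdft1, Sqle, Lss and Dhcr7. Their members on the array are all probe sets (sets of short oligonucleotides that read the same transcript) to which the platform annotation gives exactly 1 gene symbol, that symbol being one of these 7. They number 17 probe sets of 22626 tested, or 7 genes of 12393. The rule itself uses no measured value, but the genes were proposed with earlier results of these data known.

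Newborn lenses of the ICR strain were compared on Affymetrix mouse expression arrays, with 3 arrays of Hsf4-null lenses and 3 arrays of wild-type lenses, described as biological triplicates. The null animals are labelled null for Hsf4 with no tissue-specific driver named, and the sources used here give neither the number of lenses behind an array nor the littermate status of the wild-type animals. For each array 50 ng of total RNA was amplified, and the values are log2 intensities after robust multichip average (RMA) normalization by the authors. Hsf4 itself checked the labels, at 4.26, 4.09 and 3.78 in Hsf4-null lenses and 9.09, 9.39 and 9.56 in wild-type lenses.

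Median log2 intensities ran from 5.22 to 5.38 over the 6 arrays, and log2 values correlated across probe sets at 0.991 to 0.994 within a group and at 0.982 to 0.990 between groups. Lens fiber markers, of which 7 of 12 listed were measured, all lay above the median of the array. Their summed intensity was 66587 to 70517 in Hsf4-null lenses and 76269 to 77577 in wild-type lenses, and 2 of the 7 (Bfsp1 and Dnase2b) fell. Bfsp1, a bright member of that sum, was at 11.60 to 11.78 in Hsf4-null and 13.28 to 13.36 in wild-type lenses. The 5 that did not pass overlapped between the groups, with log2 differences from -0.14 for Mip to 0.02 for Cryba1. Markers of tissue around the lens mostly had positive estimates in Hsf4-null lenses. Of 9 measured mesenchyme markers 2 rose, Col1a1 by 1.89 on the log2 scale (adjusted p = 0.0201 from limma) and Twist1 to 4.74 to 5.05 in Hsf4-null lenses, against 3.84 to 3.97 in wild-type lenses (adjusted p = 0.00341 from limma). The 7 that did not pass overlapped between the groups, with log2 differences from -0.13 for Prrx1 to 0.42 for Postn. Of the 9 markers, 3 had negative estimates, and 4, Twist1 among them, lay below the array median. The summed intensities of the 9 overlapped, at 1844 to 2379 in Hsf4-null and 1645 to 1892 in wild-type lenses. No gene of the other lists passed, but the sums did not overlap for 9 vascular markers, at 1628 to 1731 in Hsf4-null and 1189 to 1540 in wild-type lenses, or for 3 blood markers, at 91.4 to 108 and 61.5 to 76.0. All 3 blood markers lay below the array median, and 3 more of that list were not analysed. Their log2 differences were -0.14 for Hba-a1, 0.61 for Alas2 and 0.72 for Slc4a1. Among the 9 vascular markers 7 had positive estimates, up to 0.60 for Cldn5. Pecam1 and Tie1, both below the array median, had -0.22 and -0.28. The sums overlapped for 11 macrophage markers, at 978 to 1810 in Hsf4-null and 539 to 1388 in wild-type lenses, for 7 retina markers, at 199.7 to 1052 and 341 to 953, and for 7 pigment cell markers, at 3482 to 4779 and 3013 to 4031. The pigment sum is mostly Mitf (log2 difference 0.03), while the pigment genes Tyrp1, Dct and Pmel had estimates of 1.30, 1.30 and 1.27, with overlapping groups. The 6 cornea and skin markers lay below the array median. Hsf4-null replicate 3 stood apart in the sex-linked transcripts, low both for Xist (3.79 on 1427263_at) and for the Y-linked Eif2s3y (3.20) and Kdm5d (4.48 on 1424903_at). Of the other 5 arrays, replicate 1 of each group had Xist at 10.09 (Hsf4-null) and 10.69 (wild-type), and the remaining 3 had Eif2s3y at 10.28 to 10.81. Without Hsf4-null replicate 3, as with it, 0 of the 17 probe sets described here passed. The part of these differences in the results below was not tested. In whole-tissue RNA, fewer cells of a type and less RNA per cell cannot be told apart.

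Cholesterol is built from acetyl-CoA. The mevalonate arm makes isoprenoid diphosphates, which are joined to squalene, and squalene is oxidized and folded into lanosterol, the first sterol. Lanosterol is then trimmed and reduced to cholesterol. In liver and cultured cells most of these genes are raised together by SREBP-2, a membrane-bound factor released when sterol is low, which acts at sterol regulatory elements beside CCAAT boxes bound by NF-Y. The lens depends on its own synthesis, and defects of LSS in humans, and of Lss and Fdft1 in the Shumiya rat, give cataract.

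The promoter windows of 4 of the 7 genes (Hmgcs1, Idi1, Lss and Dhcr7) were found in the RefSeq table of GRCm38.p6. A pair of them is shown because they carry different elements and belong to genes near opposite ends of the values below. Both are the 250 bases before the annotated start, on the plus strand, at chr13:119690101-119690350 for Hmgcs1 and chr13:8885356-8885605 for Idi1. Capitals mark a sterol regulatory element (TCACNCCAC), CCAAT boxes (CCAAT, read as ATTGG where they lie on the opposite strand) and inverted pairs of the heat shock unit (GAANNTTC or TTCNNGAA).
Hmgcs1: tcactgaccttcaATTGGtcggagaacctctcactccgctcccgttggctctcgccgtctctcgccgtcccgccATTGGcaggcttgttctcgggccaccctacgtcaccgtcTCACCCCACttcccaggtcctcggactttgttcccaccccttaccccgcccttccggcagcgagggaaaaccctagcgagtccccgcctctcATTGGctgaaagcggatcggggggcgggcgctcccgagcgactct
Idi1: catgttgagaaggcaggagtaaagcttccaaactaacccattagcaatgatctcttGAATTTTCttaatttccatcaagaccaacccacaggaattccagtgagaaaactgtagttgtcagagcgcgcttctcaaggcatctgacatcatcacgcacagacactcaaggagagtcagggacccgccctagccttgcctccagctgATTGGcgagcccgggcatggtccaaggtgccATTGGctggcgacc

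The Hmgcs1 window holds 1 sterol regulatory element, from -137 to -129, and 3 CCAAT boxes, with no heat shock pair. The Idi1 window holds 2 CCAAT boxes and 1 heat shock pair, from -194 to -187, with no sterol regulatory element of these letters. The Lss window holds 1 CCAAT box and no other match, and of 3 windows of Dhcr7 only the third holds any, 2 CCAAT boxes. Over all 32851 windows in the table, searched on both strands, 1.05% hold the sterol regulatory element, 33.8% a CCAAT box, 6.69% GAANNTTC and 7.17% TTCNNGAA; the motifs did not overlap in the windows printed. A match is a description of these letters, and binding was not measured. The printed windows were chosen by their elements and values, so the contrast between them follows from that choice. Lss and Dhcr7, with log2 differences of -0.35 and -0.40 below, hold no heat shock pair in their windows. Whether an element goes with a difference was not tested.

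None of the 7 genes passed the test for a change in Hsf4-null lenses. With limma, which fits a linear model to each probe set and borrows strength across them for the spread, 0 of the 17 probe sets had a Benjamini-Hochberg adjusted p under 0.05, against 2.66% of all probe sets tested, 1.94% lower and 0.72% higher. The smallest adjusted p among the 17 was 0.203, for Dhcr7. At an unadjusted p under 0.05, 4 of the 17 were lower (Dhcr7, Lss, Idi1 and a dim probe set of Fdft1) and 0 were higher, where 8.55% of all probe sets were lower at that level. The estimates leaned one way: 14 of the 17 log2 differences were below 0, with a median of -0.16, where the median over all probe sets was 0.00. By the brightest probe set of each gene, 5 of 7 were below 0 with a median of -0.23, against 0.01 over all 12393 genes. Probe sets of a gene read the same RNA and are not independent.

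**Figure D1:**
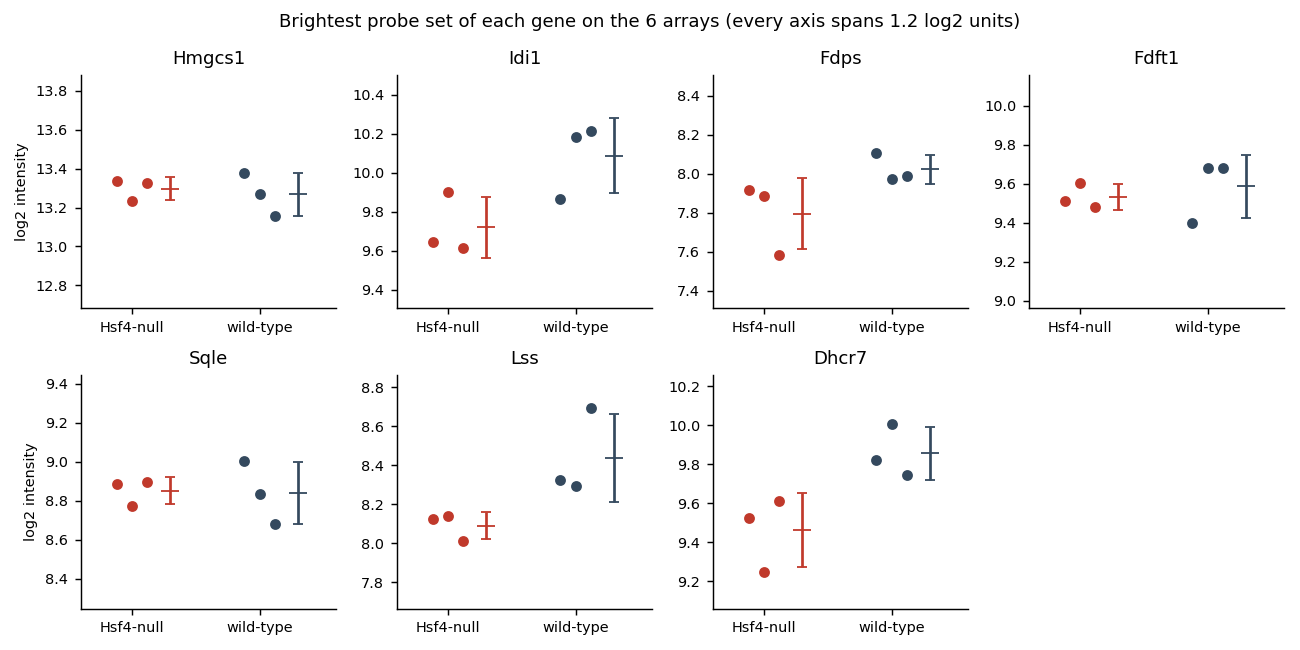
Log2 intensity (vertical axes, each spanning 1.2 log2 units) of the brightest probe set of each of the 7 genes, with 1 point per array for replicates 1, 2 and 3 from left to right and bars at the mean ± SD (n = 3). Hsf4-null arrays (red) lie below every wild-type array (dark) for Fdps, Lss and Dhcr7, and the groups overlap for the other 4 genes.

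In the mevalonate arm, Hmgcs1, the cytosolic synthase that joins acetyl-CoA and acetoacetyl-CoA, was level between the groups. Its brightest probe set (1433443_a_at) was at 13.34, 13.23 and 13.32 in Hsf4-null lenses and 13.38, 13.27 and 13.15 in wild-type lenses. The groups overlapped fully, with a log2 difference of 0.03 (95% interval -0.20 to 0.26, adjusted p = 0.919 from limma). The other 3 probe sets of Hmgcs1 had log2 differences of -0.16, -0.06 and -0.03. On the first of these, 1433445_x_at, the Hsf4-null arrays (11.25, 11.29 and 11.21) all lay below the wild-type arrays (11.48, 11.42 and 11.34), by a gap of 0.05. Probe sets ending in _x_at can share probes with other transcripts.

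Idi1 isomerizes isopentenyl diphosphate, so that both isoprenoid building blocks are at hand. Its brightest probe set was at 9.65, 9.90 and 9.62 in Hsf4-null lenses and 9.87, 10.19 and 10.21 in wild-type lenses. Only Hsf4-null replicate 2 reached the range of the wild-type arrays. The log2 difference was -0.37 (95% interval -0.68 to -0.06, unadjusted p = 0.0266, adjusted p = 0.249 from limma). The second Idi1 probe set had nearly the same estimate, -0.32, with a wider interval of -0.71 to 0.06.

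Fdps makes farnesyl diphosphate, the branch point between sterols, dolichol, ubiquinone and protein prenylation. Its brightest probe set was at 7.92, 7.88 and 7.58 in Hsf4-null lenses and 8.11, 7.97 and 7.99 in wild-type lenses. The groups did not overlap, but the gap was 0.05, and the log2 difference of -0.23 had an interval of -0.50 to 0.05 (adjusted p = 0.423 from limma). The other Fdps probe set was dim, with group means of 3.46 ± 0.08 in Hsf4-null and 3.29 ± 0.17 in wild-type lenses (SD, n = 3 each), and its log2 difference was 0.17.

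Fdft1, squalene synthase, commits farnesyl diphosphate to sterols. The brightest probe set was at 9.51, 9.60 and 9.48 in Hsf4-null lenses and 9.40, 9.68 and 9.68 in wild-type lenses. The Hsf4-null arrays lay within the wild-type range, with a log2 difference of -0.06 (95% interval -0.32 to 0.21), and the next probe set had -0.09. Both remaining Fdft1 probe sets lay below the array median of 5.30, at log2 differences of -0.22 and -0.25. The second of these, 1438919_x_at, had an unadjusted p of 0.0391 and groups that did not overlap, at 3.80 to 3.95 in Hsf4-null and 4.05 to 4.26 in wild-type lenses.

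Sqle, squalene epoxidase, a rate-limiting oxygen-dependent step, was measured by 1 probe set, at 8.89, 8.77 and 8.89 in Hsf4-null lenses and 9.00, 8.83 and 8.68 in wild-type lenses. Wild-type replicates 1 and 3 lay on either side of all Hsf4-null arrays. The log2 difference was 0.01 (95% interval -0.25 to 0.27, adjusted p = 0.972 from limma).

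Lss, lanosterol synthase, closes the sterol rings. The brightest of its 3 probe sets was at 8.12, 8.14 and 8.01 in Hsf4-null lenses and 8.33, 8.29 and 8.70 in wild-type lenses. The Hsf4-null arrays were lower without overlap, and wild-type replicate 3 stood above the other arrays. The log2 difference was -0.35 (95% interval -0.65 to -0.05, unadjusted p = 0.0293, adjusted p = 0.258 from limma), and -0.22 without wild-type replicate 3. That array also set the value of the dimmest Lss probe set, 1420014_at, at 6.57 there and 4.99 to 5.57 on the other 5 arrays. Its log2 difference of -0.49 (95% interval -1.29 to 0.31) was -0.06 without wild-type replicate 3. The third Lss probe set had -0.09.

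Dhcr7 catalyses the final reduction to cholesterol and is the enzyme deficient in Smith-Lemli-Opitz syndrome. It had the largest difference among the brightest probe sets of the 7 genes. Its only probe set was at 9.52, 9.25 and 9.61 in Hsf4-null lenses and 9.82, 10.01 and 9.74 in wild-type lenses. Every Hsf4-null array lay below every wild-type array, by a gap of 0.13. The means were 9.46 ± 0.19 in Hsf4-null and 9.86 ± 0.13 in wild-type lenses (SD, n = 3 each), a log2 difference of -0.40 (95% interval -0.70 to -0.09, unadjusted p = 0.0166, adjusted p = 0.203 from limma), or 0.76 of the wild-type level.

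Across the 17 probe sets, 5 had groups that did not overlap, all of them lower in Hsf4-null lenses (1 each of Dhcr7, Lss, Fdps, Hmgcs1 and Fdft1), where 11.7% of all probe sets had every Hsf4-null array lower. An exact permutation test of a single probe set on 3 against 3 arrays cannot go below 0.1. The number of arrays limits the precision: the 95% intervals reached 0.22 to 0.80 on either side of the estimates, so that only for 1420014_at of Lss did the interval hold a log2 difference of -1. A p that misses the threshold does not show that the levels were the same.

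**Figure D2:**
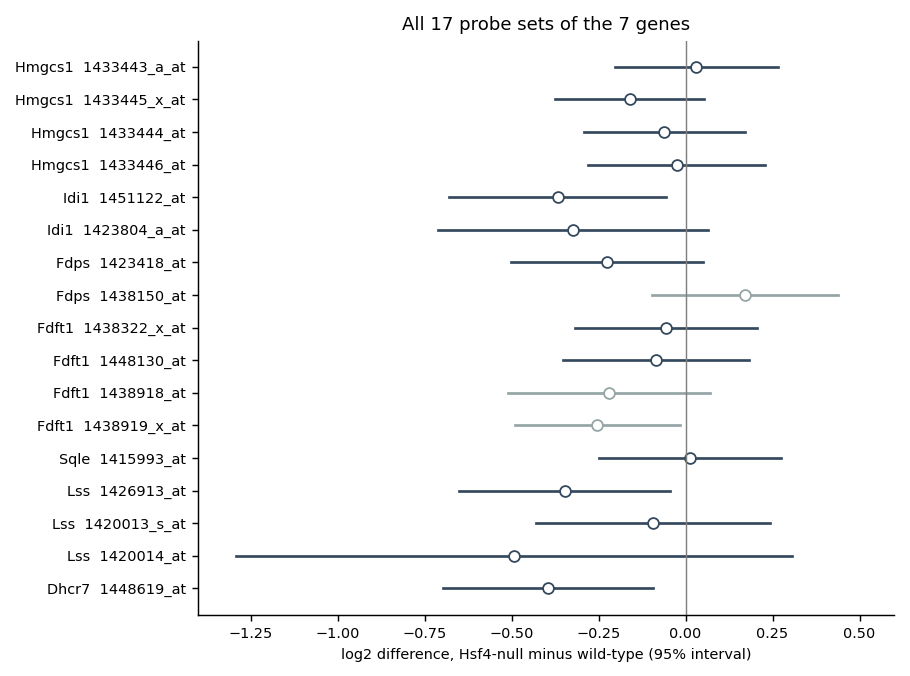
Log2 difference, Hsf4-null minus wild-type lenses, of the 17 probe sets of the 7 genes (horizontal axis), as limma estimates from 3 arrays per group with 95% intervals. Grey marks the 3 probe sets below the array median, and open points mark an adjusted p of 0.05 or more, which holds for all 17. The widest interval is that of Lss 1420014_at, from -1.29 to 0.31.

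Arrays of a group differed in ways that the 7 genes did not share. By brightest probe sets, Hmgcs1 and Sqle were lowest in wild-type replicate 3 and, among Hsf4-null arrays, in replicate 2. Idi1 and Fdft1 went the other way, lowest in wild-type replicate 1 and highest, among Hsf4-null arrays, in replicate 2. Other probe sets did not all keep these orders. On 1433444_at and 1433445_x_at of Hmgcs1, replicate 2 was the highest Hsf4-null array, at 11.29 on each. The summed pigment cell markers followed the order of Sqle and the brightest Hmgcs1 probe set in the wild-type group, at 4031, 3289 and 3013 for replicates 1, 2 and 3. They were likewise lowest in replicate 2 of the Hsf4-null group, at 4779, 3482 and 4676. The summed macrophage markers shared both features, at 1388, 1298 and 539 in wild-type and 1810, 978 and 1509 in Hsf4-null lenses. So did the lens epithelium markers, at 28168.6, 28010.3 and 27256.5 in wild-type and 27352.8, 26119 and 26911.6 in Hsf4-null lenses. The other marker lists did not share both. The part of surrounding tissue in these orders was not tested. Averaged over the 7 genes after each was centred on its own mean, the arrays stood at -0.07, -0.09 and -0.13 in Hsf4-null lenses and 0.07, 0.12 and 0.10 in wild-type lenses, with an SD over genes of 0.12 to 0.21 on a single array. Single genes ranged from -0.41 for Dhcr7 on Hsf4-null replicate 2 to 0.43 for Lss on wild-type replicate 3.

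The genes whose centred profile over the 6 arrays was most like that average, among 6882 genes above the array median, were Synrg, Mrpl41, Nlk, Arf1 and Txndc9, with root mean square differences of 0.03 on the log2 scale against a median of 0.18. Their log2 differences ran from -0.23 for Arf1 to -0.15 for Synrg, and none passed limma. The 7 genes themselves were 0.11 to 0.17 away from their own average.

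The rest of the pathway shows whether these 7 stand for the whole. Of 22 listed genes of cholesterol synthesis, 19 were measured by a probe set with 1 symbol and 3 were not analysed here. By brightest probe sets 1 of the 19 fell, 0 rose and 18 did not pass, where 2.11% of all genes fell and 0.775% rose. At an unadjusted p under 0.05 with limma, 8 of the 19 were lower, 5 of them outside the 7, and 0 were higher. Over all genes 8.38% were lower and 7.34% higher at that level. Every Hsf4-null array was lower for 7 of the 19 and higher for 1, against 1429 and 1255 of all 12393 genes. The list was chosen with earlier results of these data known and was not tested as a set. The median log2 difference was -0.20 over the 19 and -0.14 over the 12 that are not among the 7. Pmvk, phosphomevalonate kinase, was the gene that fell. It was at 7.13, 7.12 and 7.20 in Hsf4-null lenses and 7.55, 7.61 and 7.69 in wild-type lenses, a tight separation with a log2 difference of -0.47 (standard error 0.09, adjusted p = 0.0448 from limma). The call stood close to the threshold: leaving out any one of the 6 arrays raised the adjusted p to between 0.0737 and 0.146, while the log2 difference stayed between -0.50 and -0.43.

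**Figure D3:**
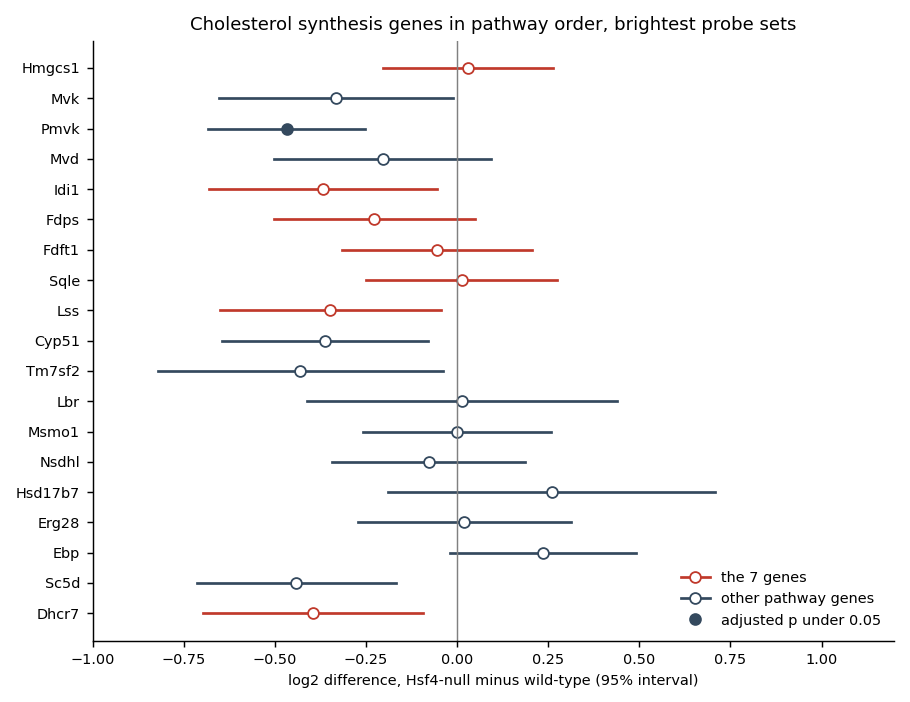
Log2 difference, Hsf4-null minus wild-type lenses, of the 19 measured cholesterol synthesis genes in pathway order from top to bottom, each by its brightest probe set, as limma estimates from 3 arrays per group with 95% intervals. Red marks the 7 genes described above, and the filled point is Pmvk, the 1 gene with an adjusted p under 0.05.

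Among the other early enzymes, Mvk, mevalonate kinase, had -0.33 and Mvd, mevalonate diphosphate decarboxylase, -0.20. Among the late enzymes, Sc5d, a sterol desaturase, was at 5.54, 5.50 and 5.41 in Hsf4-null lenses and 5.73, 6.10 and 5.94 in wild-type lenses, without overlap (log2 difference -0.44, adjusted p = 0.119 from limma). Tm7sf2, a sterol reductase, had -0.43 and the brightest probe set of Cyp51 -0.36. Hsd17b7 and Ebp, which act between them and Sc5d, had positive estimates of 0.26 and 0.24. None of these genes passed by its brightest probe set, and Nsdhl, Msmo1, Lbr and Erg28 had estimates from -0.08 to 0.02.

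Cyp51, the lanosterol demethylase, had 1 probe set that passed and 2 of the opposite sign that did not, and it is described here after its values were seen. Probe set 1422533_at was higher on every Hsf4-null array, at 8.25, 8.57 and 8.32 in Hsf4-null lenses and 6.87, 7.14 and 6.86 in wild-type lenses. That is a 2.68-fold difference (log2 difference 1.42, standard error 0.13, adjusted p = 0.00122 from limma), and it passed whichever array was left out, with log2 differences from 1.33 to 1.52. The brighter probe set, 1450646_at, ran the other way without overlap, at 8.95, 9.27 and 9.12 in Hsf4-null lenses and 9.34, 9.49 and 9.61 in wild-type lenses (log2 difference -0.36, adjusted p = 0.211 from limma). So did the dimmest, 1422534_at, at 5.48, 5.87 and 5.57 in Hsf4-null lenses and 6.01, 6.32 and 6.39 in wild-type lenses (log2 difference -0.60, adjusted p = 0.0891 from limma). The sources used here do not say which part of the transcript each probe set reads, and the data give no single direction for Cyp51.

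**Figure D4:**
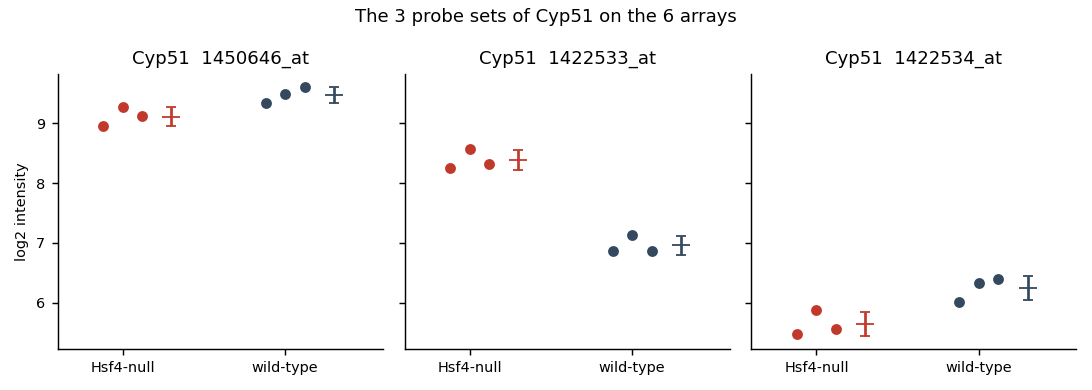
Log2 intensity (vertical axis) of the 3 probe sets of Cyp51, with 1 point per array for replicates 1, 2 and 3 from left to right and bars at the mean ± SD (n = 3). The Hsf4-null arrays (red) lie at 8.25 to 8.57 on 1422533_at, above the wild-type arrays (dark) at 6.86 to 7.14, and below the wild-type arrays on the other 2 probe sets.

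In a list of genes for sterol sensing and for SREBP and its partners, no gene passed either. It held 14 genes, of which 9 were measured and 5 were not analysed here. Of 9 measured genes of that list, 0 rose and 0 fell with limma, and at an unadjusted p under 0.05, 1 was higher (Sp1) and 0 were lower, where 7.34% of all genes were higher at that level. In 2 of the 9 (Sp1 and Srebf2, by their brightest probe sets) every Hsf4-null array was higher, as in 10.1% of all genes. Srebf2, which encodes SREBP-2, was at 9.39, 9.31 and 9.33 in Hsf4-null lenses and 9.30, 9.16 and 9.01 in wild-type lenses. Its Hsf4-null arrays lay just above the wild-type arrays (log2 difference 0.19, 95% interval -0.06 to 0.43, adjusted p = 0.451 from limma). Scap, the SREBP escort, had 0.04 and Insig2, which holds that escort in the endoplasmic reticulum, -0.03. Sp1, a promoter-binding partner of SREBP, had the largest positive estimate, 0.30, while its other probe set, a dim one, had -0.07. SREBP-2 is controlled by cleavage of the protein, which transcript levels do not show.

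Genes that draw on the same precursors or handle the product gave 0 calls as well. In the isoprenoid branches 0 of 10 passed, with log2 differences from -0.29 for Fnta to 0.24 for Fntb, the subunits of farnesyl transferase. In uptake and trafficking 0 of 9 passed, from -0.10 for Lrp1, a lipoprotein receptor, to 0.21 for Stard3, a sterol carrier of late endosomes. At an unadjusted p under 0.05 the isoprenoid list had 1 lower gene (Fnta) and the uptake list 0 genes in either direction, where 8.38% of all genes were lower. The medians of these lists were 0.07 and 0.13, above that of the synthesis genes at -0.20, a difference that was not tested.

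**Figure D5:**
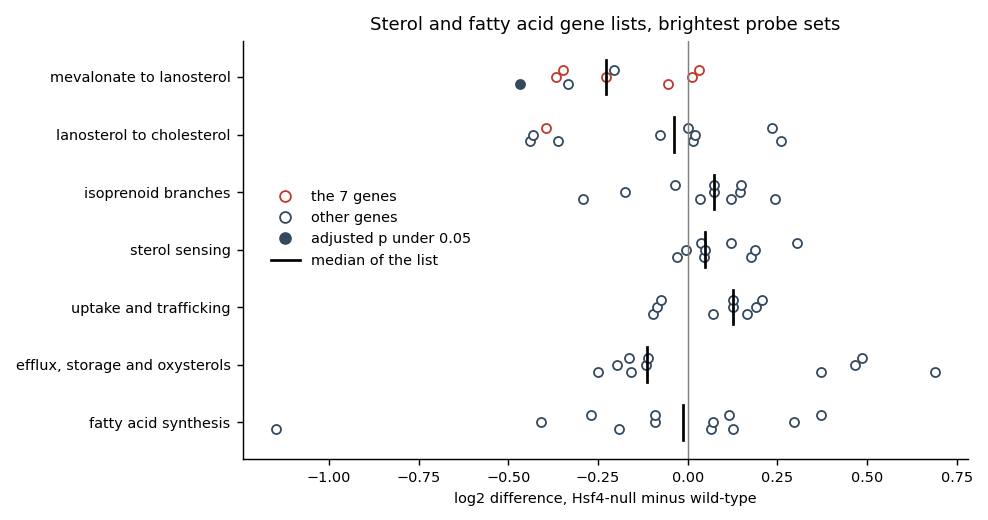
Log2 difference, Hsf4-null minus wild-type lenses (horizontal axis), of the measured genes of 7 sterol and fatty acid lists, each gene by its brightest probe set and spread vertically for legibility. Red marks the 7 genes described above, the black bar is the median of a list, and the filled point is Pmvk. Medians run from -0.23 for the enzymes up to lanosterol to 0.13 for uptake and trafficking.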

How the data were processed

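Transcripts of newborn mouse lens were measured on 6 arrays, 3 Hsf4-null and 3 wild-type, grouped by their titles. The authors normalized the arrays with RMA, and the sources used here do not give its version. The deposited values are linear intensity values, 1 for each probe set on an array, and were taken to log2. The 64 control probe sets among 22690 were dropped. The other 22626 were fitted in R 4.3.3 by lmFit and eBayes of limma 3.58.1, two-sided, with Benjamini-Hochberg adjustment over all of them and 95% intervals. Symbols came from the platform annotation, brought up to date by gene identifier with RefSeq (GRCm38.p6). A probe set carried 1 symbol in 20380 cases, and the brightest probe set by mean stood for a gene. Lists are described by counts and medians and were not tested as sets. The members and lists were chosen with earlier results of these data known. Genes named by rule were the 7 members, each called gene of a list with its largest increase and decrease, and the 5 most like profiles. Other genes given with values, such as Abca1, Abcg1, Elovl6 and Srebf2, were named outside that rule. The code was tested on simulated data. Alternatives covered the methods' t-test, a replicate block, variance models, array weights, normalization, a dim filter, a pseudocount of 16, a fold of 1.5, 1 probe set per gene and each array left out. The methods' second filter, SAM, was not run. P-values measure the spread between these samples.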

Additional observations from a re-analysis of the deposited data

How the results depend on the processing

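The count of 0 calls among the 17 probe sets held under 17 of 18 other settings. Among those, the fold of 1.5 could only remove calls, so its 0 was fixed in advance. Fits with an array left out had fewer arrays to call from. The count became 3, with 1 of 7 genes by brightest probe sets, by the methods' t-test without adjustment (Dhcr7, 1438919_x_at of Fdft1 and 1433445_x_at of Hmgcs1). The sign of the estimate never changed for 13 of the 17; a probe set that passed under neither of 2 settings was counted as the same call. The 602 calls over the array became 382 with the replicate block, 366 with 1 probe set per gene, 2912 by the t-test without adjustment and 85 after Benjamini-Hochberg adjustment, and 321 to 562 with an array left out, the lowest without Hsf4-null replicate 3, 335 without wild-type replicate 2 and 358 without wild-type replicate 3. The single pathway call, Pmvk, became 0 with median centring, renewed quantile normalization, the replicate block, trended variance, a fold of 1.5, the t-test after adjustment, and with any single array left out. By the t-test without adjustment 4 pathway genes passed, 3 of them outside the 7. The increase of Cyp51 1422533_at was lost only by the t-test after adjustment (adjusted p = 0.0684), and it was not among the probe sets used with 1 per gene. Same-numbered arrays of the groups did not deviate together (correlations of 0.25, -0.21 and -0.08), so the replicate number was not taken as a pairing. The cause of these changes was not tested. No detection calls were used, which limits what the dim probe sets can show.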

Other observations

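Genes of sterol efflux and of fatty acid synthesis were listed beside the synthesis genes, and none of the 10 and 12 measured passed limma. Of the 10 efflux genes, 6 had estimates below 0 and 4 above, with a median of -0.11. All of the 6 except Cyp7b1 lay below the array median in intensity, while all of the 4 (Abca1, Abcg1, Apoe and Lipa) lay above it. Abca1 and Abcg1, which move cholesterol out of cells, were both higher on every Hsf4-null array by their brightest probe sets, as were 10.1% of all genes. Abca1 was at 7.05, 7.11 and 7.31 in Hsf4-null lenses and 6.84, 6.40 and 6.78 in wild-type lenses (log2 difference 0.49, unadjusted p = 0.0102, adjusted p = 0.159 from limma). Its other 2 probe sets were dim and overlapped between the groups, with log2 differences of 0.14 and -0.02. Abcg1 was at 7.80, 7.61 and 7.96 in Hsf4-null lenses and 7.55, 7.30 and 7.12 in wild-type lenses (log2 difference 0.47, adjusted p = 0.173 from limma). Apoe had the largest estimate of that list, 0.69, with groups that overlapped. Cyp46a1 had the lowest, -0.25, on a dim probe set. Macrophage markers, cells in which these transporters are also used, were at 1810, 978 and 1509 of summed intensity in Hsf4-null lenses and 1388, 1298 and 539 in wild-type lenses, and their part was not tested.

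Me1, malic enzyme, which supplies NADPH for lipid synthesis, had the largest difference of all 7 lists by brightest probe sets and missed the threshold narrowly. Its brightest probe set was at 7.43, 7.51 and 6.57 in Hsf4-null lenses and 8.27, 8.47 and 8.21 in wild-type lenses (log2 difference -1.15, standard error 0.24, adjusted p = 0.0534 from limma). Hsf4-null replicate 3 was the lowest array, and without it the difference was -0.85 with an adjusted p of 0.0313. Over the alternatives the adjusted p ran from 0.0248 with trended variance to 0.302 by the methods' t-test. The dimmer Me1 probe set also had no overlap between the groups, at 5.71 to 6.11 in Hsf4-null and 6.16 to 6.58 in wild-type lenses. Elovl6, a fatty acid elongase, had -0.41 without overlap (adjusted p = 0.122 from limma), while Fasn, the fatty acid synthase, had -0.09 and Scd1, a desaturase, had the largest positive estimate, 0.37.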
